A study of Homo sapiens with 28 samples.

Results

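The core enzymes of the tricarboxylic acid (TCA) cycle were followed across treatments through the transcripts of 9 genes, CS, IDH3A, IDH3B, IDH3G, OGDH, SUCLG1, SUCLA2, FH and MDH2. They were chosen by name, for their place in the cycle, out of the 58278 genes in the count table, and all 9 had enough counts to be tested in every comparison. RNA sequencing was performed on 28 libraries of HCT116, a human colorectal carcinoma cell line, here a derivative that expressed luciferase and GFP. Tumor libraries came from subcutaneous xenografts in male NOD-SCID mice, which lack functional T and B cells and were 5 weeks old at implantation. Daily gavage began 8 days after implantation and lasted 23 days. The mice received vehicle (Control, 3 tumors), Palbociclib at 100 mg/kg/day (5 tumors), Telaglenastat at 150 mg/kg/day (4 tumors, the drug spelled Telaglenestat in the sample labels) or both drugs at these doses (Combination, 4 tumors). Palbociclib inhibits the cell cycle kinases CDK4 and CDK6, and Telaglenastat inhibits glutaminase. Culture libraries came from 12 lines derived from excised tumors, 3 lines for each of the same 4 treatments, which were dissociated with collagenase and grown without drug. All groups derive from 1 cell line in an immunodeficient host, and no label links a culture to one of the sequenced tumors.

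The TCA cycle is the mitochondrial pathway that oxidizes acetyl groups to carbon dioxide and hands the electrons to the respiratory chain. Citrate synthase (CS) joins acetyl-CoA and oxaloacetate to make citrate. NAD-dependent isocitrate dehydrogenase, built from the catalytic subunit IDH3A with IDH3B and the regulatory subunit IDH3G, makes 2-oxoglutarate, and OGDH, the first component of the 2-oxoglutarate dehydrogenase complex, turns it into succinyl-CoA. SUCLG1 is the subunit shared by both forms of succinyl-CoA ligase, and SUCLA2 is the partner that makes it ATP-forming. Fumarate hydratase (FH) makes malate, and mitochondrial malate dehydrogenase (MDH2) returns it to oxaloacetate. Carbon from glutamine enters the cycle as 2-oxoglutarate, upstream of OGDH.

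The 9 genes lie on 8 chromosomes of the GRCh38 build, and all are protein coding. IDH3G spans 153785766 to 153794523 of chromosome X on the minus strand, OGDH spans 44606572 to 44709066 of chromosome 7 on the plus strand, and MDH2 lies farther along the same chromosome at 76048051 to 76067508, also on the plus strand. IDH3B spans 2658395 to 2664219 of chromosome 20 on the minus strand. The transcripts differ in base composition, with which the fold changes in tumors moved. The GC content of the reference transcript was 60.4% for IDH3G, 56.3% for OGDH, 54.6% for IDH3B, 52.3% for MDH2, 48.9% for CS, 48.0% for SUCLG1, 43.7% for both IDH3A and FH, and 39.8% for SUCLA2. Whole coding sequences ranged from 42.5% (SUCLA2) to 59.0% (IDH3G). By this measure MDH2, at 57.3%, was above OGDH, at 55.9%, the reverse of their transcript order. The 100-base window with the most G and C within 1 coding exon is given below for each of IDH3G (exon 8, chrX:153787498-153787597, minus strand), OGDH (exon 23, chr7:44707882-44707981, plus strand) and SUCLA2 (exon 8, chr13:47954178-47954277, minus strand), with G and C in capitals. They are shown because IDH3G, OGDH and SUCLA2 had the highest, second highest and lowest transcript GC content. G and C made up 62.0%, 70.0% and 48.0% of these windows. The windows chosen the same way for all 9 genes ran from 48.0% in SUCLA2 to 76.0% in FH, with CS also at 62.0%, so they do not follow the order of the transcripts.
IDH3G: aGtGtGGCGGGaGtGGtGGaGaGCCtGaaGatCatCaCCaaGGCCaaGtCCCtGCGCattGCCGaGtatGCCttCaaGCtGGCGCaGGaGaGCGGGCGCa
OGDH: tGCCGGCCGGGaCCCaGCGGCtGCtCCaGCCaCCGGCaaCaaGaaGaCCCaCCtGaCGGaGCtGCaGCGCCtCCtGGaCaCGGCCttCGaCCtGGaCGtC
SUCLA2: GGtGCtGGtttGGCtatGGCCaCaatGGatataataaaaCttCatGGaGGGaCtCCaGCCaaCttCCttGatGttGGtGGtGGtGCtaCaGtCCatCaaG

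Short motifs before the RefSeq starts of the genes are listed as a description. Their relation to the fold changes was not tested. The 250 bases before the RefSeq start (GRCh38.p14) were available for 8 of the 9 genes, all but OGDH, and 6 short motifs were searched on both strands. CCGGAAG, the core recognised by the ETS factor GABPA, a regulator of nuclear genes for mitochondrial proteins, occurred 1 time before IDH3G, 1 time before IDH3B and 2 times before MDH2, and in none of the other 5 windows. It occurred in 8.52% of 35116 promoter windows of the same length. GGGCGG, the SP1 core, was found before CS (5 matches), IDH3A (3), FH (2) and SUCLA2 (1), and in 42.6% of all windows. AAGGTCA, an estrogen-related receptor site, was found before SUCLA2 and in 3.44% of windows. GCATGCGC (NRF1), CACGTG (MYC) and GGCGGGAA (E2F) occurred before none of the 8 genes and in 2.63%, 6.34% and 2.72% of all windows. GGCGGGAA and GGGCGG can share bases. A match describes the letters in a window and does not show that a factor binds there. The 30 bases around each CCGGAAG match are given below with the match in capitals, at chrX:153794449-153794478 for IDH3G (minus strand), chr20:2664238-2664267 for IDH3B (minus strand), and chr7:76047982-76048011 and chr7:76048026-76048055 for MDH2 (plus strand). The matches began 92, 40, 113 and 69 bases before the respective RefSeq starts. The gene extents given above are those of GENCODE and begin elsewhere for IDH3G and MDH2. Against them the IDH3G match lies inside the gene, while the IDH3B match and both MDH2 matches lie before it.
IDH3G: tgctctaggcgCCGGAAGggggcgtgaatc
IDH3B: ctcagtacaggCCGGAAGtcggggtacggg
MDH2, first: ctttccgactcCCGGAAGtggccgtgatct
MDH2, second: ggcgagcgcgaCCGGAAGtccggtcactct

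Libraries held 6273834 to 13815675 counts. The libraries also differed in how strongly gene levels followed GC content. This was measured in each library as a GC slope, the change in log2 CPM (read counts scaled to a common library size) relative to the mean of all libraries for a rise of 1 SD (8.55 percentage points) in transcript GC content across genes. The GC slope was 0.339 to 0.348 in Control tumors and 0.188 to 0.447 in Palbociclib tumors, but −0.288 to −0.205 in Telaglenastat tumors and −0.192 to −0.064 in Combination tumors. Palbociclib tumor 2 had the 0.188, the other 4 lying at 0.401 or above, and Telaglenastat culture 2 stood apart at 0.292 among cultures that otherwise ranged from −0.251 to 0.049. Treatment and GC slope cannot be told apart in the Telaglenastat and Combination tumors, so most fold changes against Control tumors are also given after a correction for transcript GC content and length, recentred on the median gene and chosen after the data had been seen. HCT116 epithelial markers summed to 3060 to 3510 CPM in Control tumors, 3000 to 4470 in Palbociclib tumors, 1560 to 1750 in Telaglenastat tumors, 2300 to 2500 in Combination tumors and 1280 to 2500 in cultures, with VIL1 and CLDN3 near 0. The 20 stroma and blood cell markers summed to 208 to 247 CPM in Control tumors, 148 to 251 in Palbociclib tumors, 63.8 to 82 in Telaglenastat tumors, 124 to 167 in Combination tumors and 8.28 to 26.7 in cultures. Among them in tumors, COL1A1 had 153 to 1394 counts, COL3A1 106 to 413, COL1A2 42 to 222 and CD68 4 to 221, while LUM and CDH5 had no count, and PTPRC, PECAM1 and CD3E had at most 3, 4 and 2 counts in any library. In bulk RNA, fewer cells of a type and less RNA per cell cannot be told apart. Whether reads of the mouse host were removed is not given in the sources used here.

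Levels between genes were compared as CPM per kb of reference transcript. In Control tumors CS was the most abundant at 97.1 ± 5.4 CPM per kb (SD, n = 3), followed by MDH2 at 76.8 ± 5.23 and IDH3B at 46.2 ± 3.43. SUCLG1 (36.5 ± 2.83), FH (31.7 ± 0.661) and IDH3G (29.4 ± 2.8) formed a middle group, above SUCLA2 (21.2 ± 1.53), OGDH (18.9 ± 1.47) and IDH3A (17.5 ± 0.983). The summed level of all 9 genes was 881 ± 46.7 CPM in Control tumors (n = 3), 846 ± 50.5 in Palbociclib tumors (n = 5), 799 ± 31.3 in Telaglenastat tumors (n = 4) and 759 ± 52.9 in Combination tumors (n = 4). In cultures it was 1170 ± 22.5 for Control, 1170 ± 39.7 for Palbociclib, 1120 ± 153 for Telaglenastat and 1100 ± 77.7 for Combination (n = 3 each). The sum was thus lower in every tumor group than in every culture group, while CS alone made up 31.7% to 39.8% of it in each group.

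**Figure D1:**
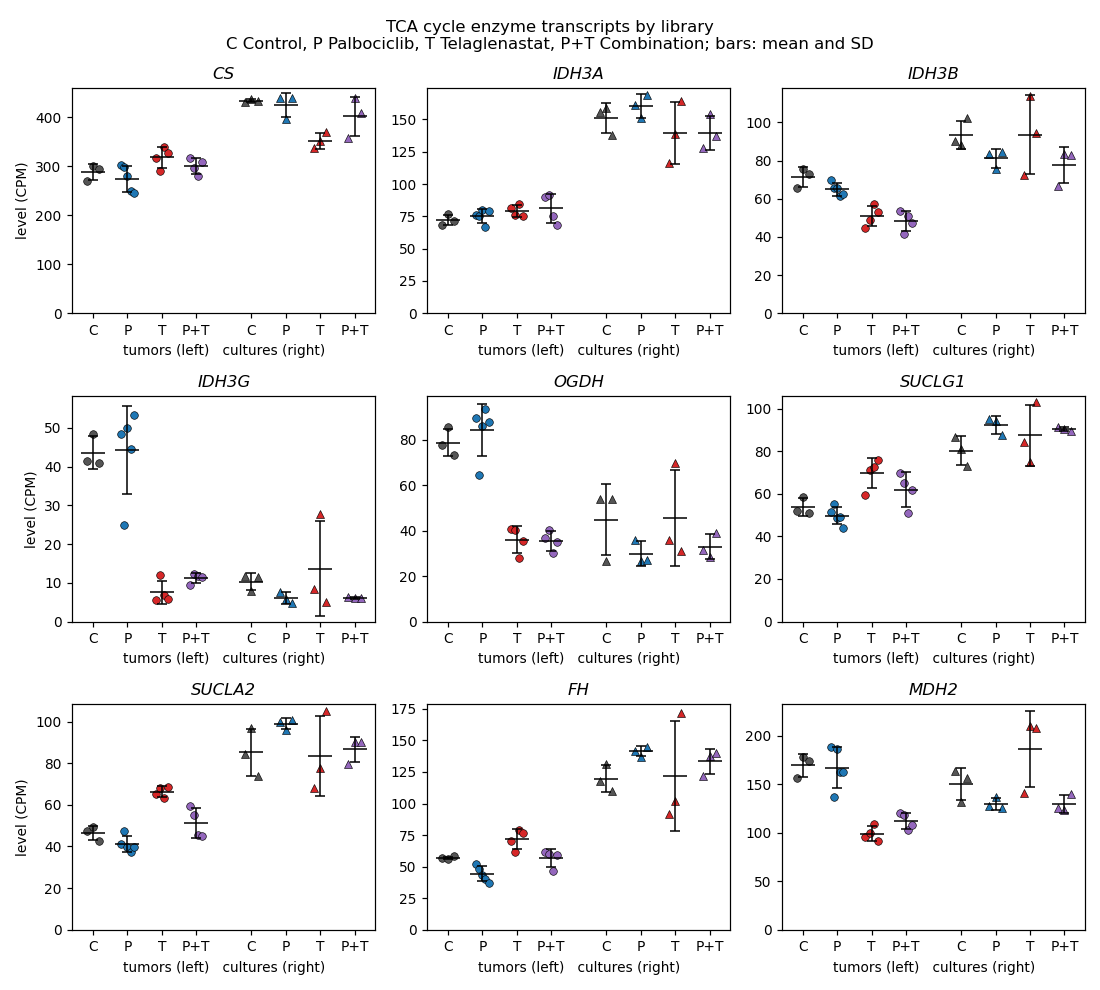
Level of each of the 9 genes in every library, in CPM normalised over all 28 libraries; circles are tumors, triangles are cultures, and bars give the mean and SD. IDH3G, OGDH, IDH3B and MDH2 sit lower in Telaglenastat and Combination tumors than in Control tumors, and CS, IDH3A, SUCLG1, SUCLA2 and FH sit higher in Control cultures than in Control tumors.

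Telaglenastat tumors differed from Control tumors in 6 of the 9 genes. IDH3G, OGDH, MDH2 and IDH3B fell, and SUCLA2 and SUCLG1 rose. Over all 14848 genes tested in tumors, 28.5% were called lower and 22.6% higher in the same comparison (edgeR quasi-likelihood test, adjusted p under 0.05). The median log2 fold change was 0.03 over the 9 genes and 0.03 over all genes. With the GC and length correction, 3 genes stayed lower (IDH3G, OGDH and MDH2) and none were higher, against 7.99% of all genes called lower.

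The largest change among the members was in IDH3G. Control tumors held 41.4, 48.4 and 40.9 CPM and Telaglenastat tumors 5.58, 11.9, 6.74 and 5.86 CPM. The highest Telaglenastat tumor was far below the lowest Control tumor. The log2 fold change was −2.63 ± 0.24 (SE, edgeR adjusted p = 4.11e-08), a level of 0.161 times the Control. The corrected log2 fold change was −1.47 ± 0.18 (edgeR adjusted p = 1.63e-05). The uncorrected call held with each of the 7 libraries left out in turn, as did those of IDH3B, OGDH and MDH2. IDH3G overlaps SSR4 on the opposite strand, and since the strand setting of the counting is not given in the sources used here, its counts may include reads of that gene.

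The other subunits of the same enzyme did not follow IDH3G to the same extent. IDH3B, at 65.4, 75.7 and 72.8 CPM in Control tumors, stood at 44.8, 48.6, 57 and 53.3 CPM in Telaglenastat tumors, again without overlap. Its log2 fold change was −0.60 ± 0.09 (edgeR adjusted p = 2.06e-05), but the corrected value was −0.08 ± 0.10 (edgeR adjusted p = 0.665), which ended the call. Without recentring the correction left it lower, at −0.31 ± 0.09 (edgeR adjusted p = 0.0109). IDH3A, the catalytic subunit, held 68.6, 76.5 and 71.3 CPM in Control tumors and 81.7, 75.8, 84.4 and 74.9 CPM in Telaglenastat tumors, with a log2 fold change of 0.03 ± 0.09 (edgeR adjusted p = 0.827). The corrected value was −0.24 ± 0.08 (edgeR adjusted p = 0.0625). The groups of IDH3A overlapped. IDH3A shares its locus with AC090260.1 on the same strand and with ACSBG1 and CIB2 on the opposite one.

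The ratios between the subunit transcripts differed between the groups. The ratio of IDH3A to IDH3G transcripts per kb was 0.597 ± 0.0287 in Control tumors (range 0.569 to 0.626, n = 3) and 0.66 ± 0.242 in Palbociclib tumors (0.532 to 1.09, n = 5). It was 4.17 ± 1.29 in Telaglenastat tumors (2.3 to 5.27, n = 4), 2.64 ± 0.592 in Combination tumors (2.12 to 3.45, n = 4) and 5.49 ± 1.62 in Control cultures (4.34 to 7.35, n = 3). The ratio of IDH3B to IDH3G was 1.58 ± 0.116 in Control tumors, 7.13 ± 2.17 in Telaglenastat tumors and 4.21 ± 0.949 in Combination tumors. These ratios were not corrected for GC content, in which IDH3G differs from IDH3A by more than 1 SD of all genes, and they were not tested.

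**Figure D2:**
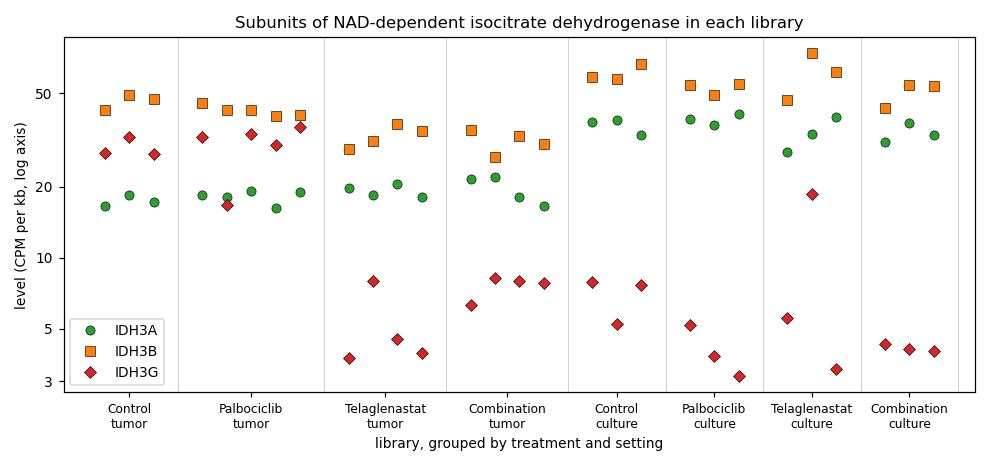
Levels of the 3 subunit transcripts of NAD-dependent isocitrate dehydrogenase in each library, in CPM per kb of reference transcript on a log axis. IDH3G (diamonds) lies above IDH3A (circles) in the Control tumors and below it in every Telaglenastat and Combination tumor and every culture, while IDH3B (squares) is the highest of the 3 in every library.

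OGDH, which consumes the 2-oxoglutarate that glutamine supplies, was at 77.6, 85.5 and 73.4 CPM in Control tumors and 40.9, 40.3, 28 and 35.3 CPM in Telaglenastat tumors. The groups did not overlap. It fell by a log2 fold change of −1.23 ± 0.13 (edgeR adjusted p = 2.96e-07), to 0.426 times the Control level, and by −0.55 ± 0.10 after correction (edgeR adjusted p = 0.00111). MDH2, the last enzyme of the cycle, went from 156, 178 and 174 CPM in Control tumors to 95.2, 100, 109 and 91.8 CPM in Telaglenastat tumors, also without overlap. Its log2 fold change of −0.88 ± 0.09 (edgeR adjusted p = 1.82e-07) was −0.66 ± 0.09 after correction (edgeR adjusted p = 3.56e-05).

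Both succinyl-CoA ligase subunits were higher in Telaglenastat tumors as measured. SUCLA2 held 47.2, 49.3 and 42.7 CPM in Control tumors and 65.3, 68, 63.1 and 68.8 CPM in Telaglenastat tumors, with a log2 fold change of 0.41 ± 0.10 (edgeR adjusted p = 0.00187). The groups were clearly apart, yet the corrected value was 0.05 ± 0.08 (edgeR adjusted p = 0.761). SUCLG1 held 51.9, 58.6 and 50.9 CPM in Control tumors and 59.4, 71.2, 72.4 and 75.8 CPM in Telaglenastat tumors, with a log2 fold change of 0.26 ± 0.10 (edgeR adjusted p = 0.0344) and a corrected value of 0.20 ± 0.09 (edgeR adjusted p = 0.165). The SUCLG1 call was lost without any one of 5 of the 7 libraries, namely Control tumors 1 and 3 and Telaglenastat tumors 2, 3 and 4 (edgeR adjusted p = 0.063 to 0.125). SUCLA2 overlaps AL138962.1, LINC00562 and RPL27AP8 on its strand and NAP1L4P3 and SUCLA2-AS1, among others, on the other, and 3 pseudogenes bear its name, so its counts are less certain than those of SUCLG1, which overlaps no annotated gene.

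CS and FH did not pass the test. CS held 271, 301 and 295 CPM in Control tumors and 318, 290, 339 and 327 CPM in Telaglenastat tumors, with a log2 fold change of 0.03 ± 0.08 (edgeR adjusted p = 0.756) and a corrected one of −0.015 ± 0.069 (edgeR adjusted p = 0.926). FH held 56.7, 55.8 and 58.1 CPM in Control tumors and 70.6, 61.5, 78.8 and 76.3 CPM in Telaglenastat tumors. Every FH value of the Telaglenastat tumors was above every Control value, but the log2 fold change of 0.23 ± 0.11 missed the threshold (edgeR adjusted p = 0.0899) and was −0.02 ± 0.10 after correction (edgeR adjusted p = 0.942). Without Telaglenastat tumor 2 the uncorrected FH value passed (0.29, edgeR adjusted p = 0.0381). CS overlaps AC073896.1 and AC073896.2, and FH has 1 pseudogene bearing its name.

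**Figure D3:**
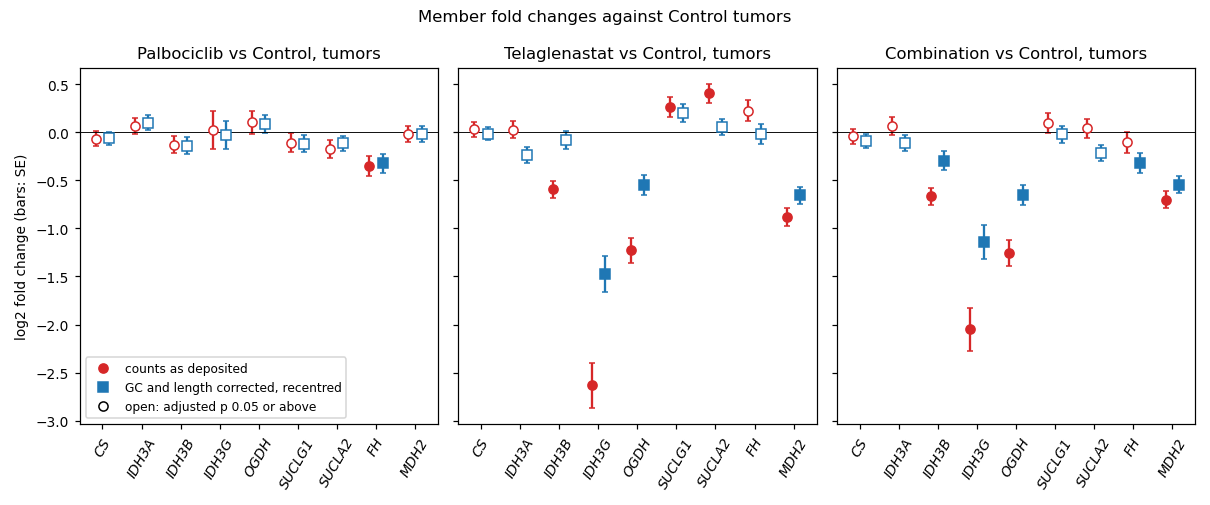
Log2 fold change of each gene against Control tumors with its standard error, from the counts as deposited (red circles) and after GC content and length correction with recentring on the median gene (blue squares); filled symbols have an adjusted p under 0.05. IDH3G, OGDH and MDH2 are filled in both forms for Telaglenastat and for Combination, and FH is filled in both forms for Palbociclib.

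Combination tumors, compared with the same Control tumors, had the same 4 genes lower and none higher, where 26.9% of all genes tested were called lower and 17.6% higher. The median log2 fold change of the 9 genes was −0.10 and that of all genes −0.04. After correction 5 of the 9 were lower, IDH3B, IDH3G, OGDH, FH and MDH2, beside 13.1% of all genes. IDH3G held 9.36, 12.2, 11.8 and 11.6 CPM in Combination tumors and every library was far below the lowest Control tumor. Its log2 fold change was −2.05 ± 0.23 (edgeR adjusted p = 6.25e-07) and −1.14 ± 0.17 corrected (edgeR adjusted p = 7.16e-05). OGDH held 36.9, 40.2, 30 and 34.9 CPM, with a log2 fold change of −1.25 ± 0.13 (edgeR adjusted p = 4.09e-07) and −0.65 ± 0.10 corrected (edgeR adjusted p = 0.000117). MDH2 held 120, 118, 103 and 108 CPM, with −0.70 ± 0.09 (edgeR adjusted p = 3.82e-06) and −0.54 ± 0.09 corrected (edgeR adjusted p = 0.000122). IDH3B held 53.7, 41.3, 50.9 and 47.1 CPM, with −0.67 ± 0.09 (edgeR adjusted p = 7.22e-06) and −0.29 ± 0.10 corrected (edgeR adjusted p = 0.0278). None of the 4 overlapped the Control tumors. The share of all genes without such overlap is not given here.

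As measured, the remaining 5 genes stayed near the Control level in Combination tumors. CS (280 to 318 CPM), IDH3A (68.4 to 91.4), SUCLG1 (50.9 to 69.9), SUCLA2 (45.2 to 59.6) and FH (46.3 to 61.7) all overlapped the Control range. Their uncorrected log2 fold changes lay between −0.10 (FH) and 0.10 (SUCLG1). FH passed with the correction (−0.32 ± 0.10, edgeR adjusted p = 0.0231) and not without it (edgeR adjusted p = 0.47). The corrected values of CS (−0.092), IDH3A (−0.109), SUCLG1 (−0.023) and SUCLA2 (−0.215, edgeR adjusted p = 0.0608) did not pass. Before recentring, the correction called CS (−0.286), IDH3A (−0.304), SUCLA2 (−0.41) and FH (−0.516) lower, beside 28.7% of all genes.

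Palbociclib alone moved 1 of the 9 genes, where 3.6% of all genes were called lower and 2.55% higher. FH was at 51.8, 48.4, 43.5, 40.5 and 37.2 CPM in Palbociclib tumors, each below the 55.8 CPM of the lowest Control tumor. Its log2 fold change was −0.35 ± 0.10 (edgeR adjusted p = 0.047) and −0.32 ± 0.10 corrected (edgeR adjusted p = 0.04, beside 4.3% of all genes lower). The call was fragile, being lost without any one of 6 of the 8 libraries, namely Control tumors 1, 2 and 3 and Palbociclib tumors 3, 4 and 5, with a log2 fold change of −0.37 to −0.30 and an edgeR adjusted p of 0.081 to 0.161. The other 8 genes had log2 fold changes between −0.17 (SUCLA2) and 0.10 (OGDH). IDH3G held 48.4, 24.8, 49.9, 44.6 and 53.4 CPM, and its lowest value belonged to Palbociclib tumor 2, the library with the lowest GC slope of the group. The same library was the lowest of the group for OGDH at 64.5 CPM and for MDH2 at 137 CPM.

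Combination tumors were lower than Palbociclib tumors in the same 4 genes in which Telaglenastat tumors were lower than Control tumors. In Combination against Palbociclib tumors, IDH3G (log2 fold change −2.08 ± 0.21, edgeR adjusted p = 1.7e-07), OGDH (−1.36 ± 0.12, 6.08e-08), MDH2 (−0.69 ± 0.08, 1.24e-06) and IDH3B (−0.54 ± 0.08, 2.28e-05) fell, where 27.5% of all genes were lower. After correction IDH3G (−1.11 ± 0.16), OGDH (−0.74 ± 0.10) and MDH2 (−0.53 ± 0.08) remained lower, with 7.95% of all genes. IDH3B then did not pass (−0.155 ± 0.086, edgeR adjusted p = 0.265). SUCLA2 (0.22 ± 0.09, edgeR adjusted p = 0.0479) and FH (0.25 ± 0.10, edgeR adjusted p = 0.0415) were higher, as were 20.1% of all genes. Each of these upward calls was lost in 6 of the 9 fits that left out 1 library. For SUCLA2 these were the fits without Palbociclib tumor 1, 3, 4 or 5 or Combination tumor 1 or 2, and for FH those without Palbociclib tumor 3, 4 or 5 or Combination tumor 1, 2 or 4. After correction the value of SUCLA2 changed sign (−0.10 ± 0.07) and that of FH was 0.00 ± 0.09. SUCLG1 (0.21 ± 0.09, edgeR adjusted p = 0.0621) passed only without Palbociclib tumor 2 or Combination tumor 3.

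Combination tumors were lower than Telaglenastat tumors in 2 of the 9 genes, SUCLA2 and FH. Among all genes 9.89% were lower and 8.93% higher. SUCLA2 had a log2 fold change of −0.36 ± 0.09 (edgeR adjusted p = 0.00826) and −0.27 ± 0.08 corrected (edgeR adjusted p = 0.0212). FH had −0.33 ± 0.10 (edgeR adjusted p = 0.028) and −0.30 ± 0.10 corrected (edgeR adjusted p = 0.033, with 7.54% of all genes lower). The FH call was lost without Telaglenastat tumor 1, 3 or 4 or Combination tumor 3 (edgeR adjusted p = 0.0541 to 0.125). IDH3G was at 0.58 ± 0.25 (edgeR adjusted p = 0.116), and passed only without Telaglenastat tumor 2, the highest of its group (0.91, edgeR adjusted p = 0.0165). FH was the gene called lower both here and in Palbociclib against Control tumors. The groups of these 2 comparisons share no library, but all tumors were fitted together, so the calls are not independent. Each call was also lost in some of the fits that left out 1 library.

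The direction of the Telaglenastat difference followed the base composition of the 9 transcripts. Over the 9 genes the Pearson correlation between transcript GC content and log2 fold change was −0.89 for Telaglenastat against Control, and it was −0.68 over 14800 genes. For Combination against Control the values were −0.89 and −0.57, and for Palbociclib against Control 0.53 and 0.07. These are descriptions over genes measured in shared libraries. After correction the correlation over all genes was −0.06 for Telaglenastat, and over the 9 genes it was −0.74, with IDH3G, OGDH and MDH2 still the lowest.

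**Figure D4:**
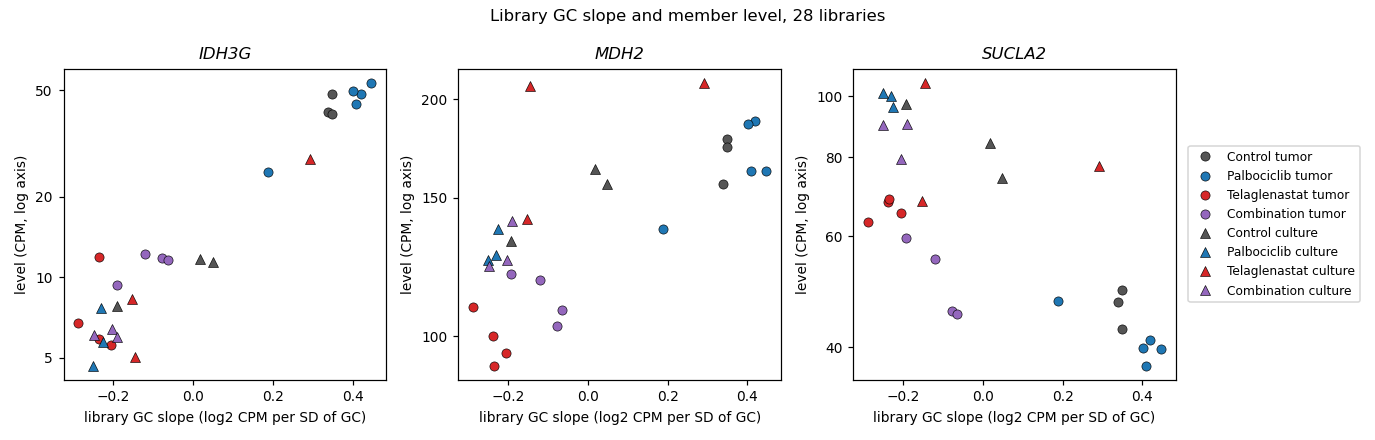
Level of IDH3G, MDH2 and SUCLA2 (CPM, log axis) in each of the 28 libraries by the library's GC slope (log2 CPM per SD of transcript GC content). IDH3G is highest and SUCLA2 lowest in the libraries with the highest GC slopes; Palbociclib tumor 2 (slope 0.188) and Telaglenastat culture 2 (slope 0.292) fall between the groups for IDH3G.

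Lines grown from the tumors without drug showed none of these differences at the threshold. In Palbociclib, Telaglenastat and Combination cultures against Control cultures, 0 of the 9 genes were called by the edgeR quasi-likelihood test or by DESeq2, which adjusted the p of only 1 of the 9 for Telaglenastat. In edgeR the share of all 13985 genes called was 0%, 0% and 0.00715%, so few calls were made for any gene. At an unadjusted p under 0.05 the test gave 0, 1 and 0 of the 9 genes, beside 592, 898 and 895 of all genes. The 1 was CS in Telaglenastat cultures, at 337, 351 and 370 CPM against 431, 438 and 434 CPM in Control cultures. Its log2 fold change was −0.32 ± 0.10 (edgeR adjusted p = 0.711). Combination against Palbociclib cultures gave 0 calls (0% of all genes). At an unadjusted p under 0.05 it gave 0 of the 9 genes, beside 277 of all genes. Combination against Telaglenastat cultures gave 0 calls too (0% of all genes). There 2 members, MDH2 and IDH3G, had an unadjusted p under 0.05, beside 1969 of the 13985 genes. Without Telaglenastat culture 1 MDH2 passed (−0.67, edgeR adjusted p = 0.0144).

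IDH3G was the least even of the members in cultures. It held 11.7, 7.81 and 11.4 CPM in Control, 7.68, 5.7 and 4.67 CPM in Palbociclib, 8.27, 27.7 and 5.02 CPM in Telaglenastat, and 6.42, 6.07 and 5.99 CPM in Combination cultures. The 27.7 CPM belonged to Telaglenastat culture 2, the culture with the highest GC slope, which also had the highest OGDH of all cultures at 69.9 CPM. FH reached 172 CPM in Telaglenastat culture 3, against 91.6 and 102 CPM in the other two Telaglenastat cultures. MDH2 held 141, 210 and 208 CPM in Telaglenastat cultures and 163, 132 and 156 CPM in Control cultures.

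Control tumors and Control cultures differed in 8 of the 9 genes. CS, IDH3A, IDH3B, SUCLG1, SUCLA2 and FH were lower in tumors, where 22.8% of the 15466 genes tested were lower, and IDH3G and OGDH were higher, as were 23.1% of all genes. The median log2 fold change was −0.57 over the 9 genes and 0.07 over all genes. FH was at 56.7, 55.8 and 58.1 CPM in Control tumors and 118, 131 and 110 CPM in Control cultures, with a log2 fold change of −1.07 ± 0.16 (edgeR adjusted p = 4.83e-06). IDH3A held 156, 159 and 138 CPM in Control cultures and was lower in tumors by nearly the same amount (−1.07 ± 0.12, edgeR adjusted p = 3.73e-08). SUCLA2 (−0.88 ± 0.13), CS (−0.59 ± 0.09), SUCLG1 (−0.57 ± 0.12) and IDH3B (−0.39 ± 0.13, edgeR adjusted p = 0.014) followed. The corrected values were −0.747 for FH, −0.837 for IDH3A, −0.466 for SUCLA2, −0.509 for CS, −0.397 for SUCLG1 and −0.612 for IDH3B. The IDH3B call was lost without Control culture 3 or Control tumor 1.

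IDH3G went the opposite way, with Control tumors 4.23 times Control cultures (log2 fold change 2.08 ± 0.38, edgeR adjusted p = 5.44e-05), and OGDH with it (0.82 ± 0.24, edgeR adjusted p = 0.0062). OGDH held 53.9, 26.7 and 53.9 CPM in Control cultures, and without Control culture 2, the 26.7, its call was lost (0.55, edgeR adjusted p = 0.0694). MDH2 did not pass (0.17 ± 0.13, edgeR adjusted p = 0.27). After correction the same 6 genes were lower (21.1% of all genes) and IDH3G was higher (1.47 ± 0.25, with 19.5% of all genes), while OGDH stood at 0.38 ± 0.16 (edgeR adjusted p = 0.0514). Control tumors had higher GC slopes (0.339 to 0.348) than Control cultures (−0.192 to 0.049), higher stroma and blood cell marker sums and lower proliferation marker sums (1570 to 1660 CPM against 2530 to 2870 CPM). Their part in these differences was not tested.

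The drug differences were then compared between tumors and cultures directly, as the difference of log2 fold changes against Control. For Telaglenastat it passed for 6 of the 9 genes, 4 lower and 2 higher in tumors, where 18.5% of all genes were lower and 15.6% higher. The difference was −2.97 ± 0.52 for IDH3G (edgeR adjusted p = 0.000239), −1.16 ± 0.33 for OGDH (0.00785), −1.08 ± 0.17 for MDH2 (0.000121) and −0.49 ± 0.18 for IDH3B (0.0322). It was 0.54 ± 0.18 for SUCLA2 (edgeR adjusted p = 0.0209) and 0.44 ± 0.12 for CS (edgeR adjusted p = 0.00823). After correction, IDH3G (−1.58 ± 0.36, edgeR adjusted p = 0.00993) and MDH2 (−0.90 ± 0.15, edgeR adjusted p = 0.000518) passed, with 2.77% of all genes lower. Without Telaglenastat culture 2 the calls fell to 3, IDH3G, MDH2 and CS, with OGDH at −0.71 (edgeR adjusted p = 0.0732). The IDH3B call was lost in 7 of the 13 fits that left out 1 library and the SUCLA2 call in 4. Without Telaglenastat culture 3, IDH3A (0.38, edgeR adjusted p = 0.0493) and FH (0.64, edgeR adjusted p = 0.00391) passed. For Palbociclib and for Combination no member passed in edgeR or DESeq2, where 1.39% and 2.91% of all genes did in edgeR. In each, 3 members had an unadjusted edgeR p under 0.05, beside 2159 and 3211 of the 15466 genes tested.

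Ordered over all 8 groups, the genes made up different series. IDH3G ran from Palbociclib tumors (44.2 ± 11.3 CPM, n = 5) and Control tumors (43.6 ± 4.16, n = 3) through Telaglenastat cultures (13.7 ± 12.2, n = 3), Combination tumors (11.2 ± 1.27, n = 4), Control cultures (10.3 ± 2.17, n = 3) and Telaglenastat tumors (7.51 ± 2.94, n = 4) to Combination cultures (6.16 ± 0.229, n = 3) and Palbociclib cultures (6.02 ± 1.53, n = 3). Among neighbours in this order, only Control tumors and Telaglenastat cultures did not overlap. OGDH had the same break after Palbociclib tumors (84.3 ± 11.5 CPM) and Control tumors (78.8 ± 6.13), with the other 6 groups between 29.9 and 45.7 CPM and each overlapping the next. MDH2 was lowest in Telaglenastat (99.1 ± 7.52 CPM) and Combination tumors (112 ± 8.09), which did not overlap the next group, Palbociclib cultures (129 ± 6.82). CS, IDH3A, SUCLG1, SUCLA2 and FH instead had the means of all 4 culture groups above those of all 4 tumor groups. How large a share of all genes had this order is not given here. The break between the lowest culture group and the highest tumor group was without overlap for IDH3A (139 ± 24.1 against 81.1 ± 11.2 CPM) and FH (120 ± 11 against 71.8 ± 7.65 CPM), and for CS, SUCLG1 and SUCLA2 the ranges overlapped there. IDH3B separated Telaglenastat (50.9 ± 5.35 CPM) and Combination tumors (48.2 ± 5.38) from Palbociclib tumors (65 ± 3.33).

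The counts of the other gene lists stand beside the shares of all genes, which were 28.5% lower and 22.6% higher in Telaglenastat tumors and 26.9% lower and 17.6% higher in Combination tumors. With the correction these shares were 7.99% and 6.3%, and 13.1% and 13.2%. Of the 8 other TCA cycle subunits, 3 were lower and 2 higher in Telaglenastat tumors (median log2 fold change −0.02), and 4 were lower and 2 higher in Combination tumors (median −0.22). With the correction 2 and 6 were lower and none higher. SDHA, the flavoprotein of succinate dehydrogenase, fell (−0.65 ± 0.10, edgeR adjusted p = 2.3e-05; corrected −0.09, edgeR adjusted p = 0.593), and SDHC, one of its membrane anchors, rose (0.34 ± 0.07, edgeR adjusted p = 0.000597; corrected 0.05, edgeR adjusted p = 0.743). Without the correction, none of the 8 passed in Palbociclib tumors, and 5 were lower in Control tumors than in Control cultures. With it, 1 was lower in Palbociclib tumors, beside 4.3% of all genes, and 4 were lower in Control tumors. None passed in any culture comparison with Control in either form.

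Of 13 genes for pyruvate entry, 2 were lower and 3 higher in Telaglenastat tumors (median 0.11) and 2 lower in Combination tumors (median −0.02). With the correction, 1 and 4 were lower. PDK2, a kinase that inhibits pyruvate dehydrogenase, fell (−1.39 ± 0.18 in Telaglenastat tumors, corrected −0.31, edgeR adjusted p = 0.257), as did PC, pyruvate carboxylase (−1.78 ± 0.33, corrected −0.59, edgeR adjusted p = 0.19), while PDK1 rose (0.39 ± 0.11, corrected 0.02, edgeR adjusted p = 0.946). None passed in Palbociclib tumors.

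Of 9 genes tested for glutamine and aspartate entry, 3 were lower and 3 higher in Telaglenastat tumors (median −0.08) and in Combination tumors (median 0.04). With the correction, 2 were lower and none higher in Telaglenastat tumors, and 1 was lower and 2 higher in Combination tumors. In Palbociclib tumors 1 was higher and none lower in both forms, beside 2.55% of all genes higher uncorrected and 4% corrected. The mitochondrial carriers SLC25A11 (oxoglutarate, −1.41 ± 0.18, corrected −0.47) and SLC25A10 (dicarboxylates, −3.18 ± 0.40, corrected −1.73) fell in Telaglenastat tumors with and without the correction.

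Of 10 genes tested for isoenzymes and the NADPH shuttle, 4 were lower and 3 higher in Telaglenastat tumors (median 0.06) and 4 lower and 1 higher in Combination tumors (median −0.11). With the correction, 2 were lower and 1 higher (median −0.18), and 4 lower and none higher (median −0.26). The citrate carrier SLC25A1 (−2.18 ± 0.18, corrected −0.69) and ATP citrate lyase, ACLY (−0.55 ± 0.08, corrected −0.35), which take citrate out of mitochondria and cleave it, fell in Telaglenastat tumors in both forms. OGDHL, a relative of OGDH, fell (−1.58 ± 0.28) and did not pass when corrected (−0.65, edgeR adjusted p = 0.0898). Of 20 genes tested for mitochondrial biogenesis and import, 9 were lower and 6 higher in Telaglenastat tumors (median −0.25) and 10 lower and 7 higher in Combination tumors (median −0.16), or 3 lower and 1 higher and 7 lower and 2 higher with the correction. The prohibitins PHB (−0.90 ± 0.08, corrected −0.46) and PHB2 (−0.87 ± 0.10, corrected −0.09, edgeR adjusted p = 0.514) and the protease LONP1 (−1.49 ± 0.16, corrected −0.18, edgeR adjusted p = 0.359) fell in Telaglenastat tumors. No gene of these last 2 lists passed in Palbociclib tumors.

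The marker lists moved with the treatments too. Of 8 proliferation markers, 8 were lower in Palbociclib tumors (median −0.79) and 8 in Combination tumors (median −0.65), with or without the correction. TOP2A, the mitotic topoisomerase, fell in both (−0.91 ± 0.12 and −0.63 ± 0.12), as did the kinase CDK1 (−0.84 ± 0.13 and −0.62 ± 0.14) and the replication helicase subunit MCM2 (−0.41 ± 0.11 and −1.28 ± 0.12). In Telaglenastat tumors 1 was lower and 1 higher, and none passed with the correction. Of 7 epithelial markers tested, 5 were lower and 1 higher in Telaglenastat tumors (KRT19 −2.09 ± 0.16, KRT8 −1.36 ± 0.12, KRT18 −1.21 ± 0.11), 3 lower and 2 higher in Combination tumors and 1 higher in Palbociclib tumors. With the correction these counts were 3 lower and none higher (median −0.34), 2 lower and 3 higher (median 0.17) and 2 higher. KRT18 in Telaglenastat tumors was then at −0.05 ± 0.09 (edgeR adjusted p = 0.806). Of the 9 tested stroma and blood cell markers, 6 were lower in Telaglenastat tumors (COL1A1 −2.22 ± 0.18, COL1A2 −1.44 ± 0.17, CD68 −2.30 ± 0.41), 2 were lower in Combination tumors and none passed in Palbociclib tumors. With the correction 5, 1 and 0 were lower. The part of these lists in the values of the TCA cycle genes was not tested.

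The genes whose log2 CPM most resembled the mean of the 9 members over the 16 tumors, among 12684 protein-coding genes, were KCNH2 (Pearson r = 0.986), UQCRC1 (0.982), EIF5A (0.982), KLHDC3 (0.982) and PSMD13 (0.979). Over the 12 cultures, among 12087 genes, they were PSMD3 (0.969), SF3B2 (0.964), PFKP (0.963), ALYREF (0.961) and TUBA1B (0.96). The members themselves did not share 1 course. Over the tumors IDH3G and SUCLA2 had a Pearson r of −0.784 with each other, and OGDH and SUCLG1 one of −0.668, while the members' correlation with their own mean averaged 0.241 in tumors and 0.355 in cultures. All 10 transcripts had a GC content of 52.4% to 66.8%. These are the highest of many correlations over shared libraries and are given as a description.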

How the data were processed

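RNA was sequenced from 16 xenograft tumors and 12 tumor-derived cultures. The authors selected poly(A) RNA, prepared libraries with a kit that marks the second strand, read 60 bases single-end, called bases with CASAVA 1.8 and aligned and counted reads per gene with STAR against hg38, and the deposited values are raw counts. The annotation release and strand setting are not given in the sources used here. Of 58278 genes, 22232 had no count, and 57940 matched GENCODE 29 by identifier, from which positions, transcript lengths and GC content were taken. The unmatched genes held 0.0287% of counts. No column was left unused (0).

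From the counts, edgeR 4.0.16 (R 4.3.3) was run with TMM factors, filterByExpr (minimum count 10), quasi-likelihood tests and Benjamini-Hochberg adjustment over all genes tested, with a threshold of 0.05. The 16 tumors and the 12 cultures were fitted separately as 4 group means, and all 28 libraries as 8 group means for tumors against cultures. SEs are the log2 fold change over the square root of F. The scripts were tested on simulated data. Alternatives were DESeq2 1.42.0, its size factors, no filter, only the groups compared, a replicate block, a per-library spline correction for GC content and length, and leaving out each library. Because that correction shifted the median of all genes, a recentred form was added after the data had been seen, and "corrected" in the text means this form. Levels are CPM over all 28 libraries, and marker sums are CPM of the raw total. The members and gene lists were chosen with earlier results of these data known. All 9 members are named, with up to 3 genes per list (the smallest adjusted p in Telaglenastat against Control tumors among those called in any tumor comparison with Control) and the 5 genes most correlated with the members in each setting. Some genes these rules would name are not reported here. SDHD occurs in 2 rows, of which 1 passed the filter. Each mouse carried 1 tumor implant and the culture lines were derived separately, so the p-values measure the spread between animals or between lines of 1 parental cell line. Total counts per library limit the precision of low genes such as IDH3G. No 2 libraries of the same group agreed within counting noise. The chi-square per degree of freedom was 36.7 to 46.4 between Telaglenastat cultures and 4.7 to 10.9 within the other culture groups.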

Additional observations from a re-analysis of the deposited data

Results flagged for a closer look

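Among 27 sets of 1 gene in 1 group of 4 or 5 tumors, 2 had a sample far from the others by Dixon's criterion, which chance alone gives in about 1 of 20 sets. OGDH was lowest in Palbociclib tumor 2, at 64.5 CPM, the library whose GC slope of 0.188 was also the lowest of its group. FH was lowest in Combination tumor 3, at 46.3 CPM, against 59.3 to 61.7 CPM in the other three.

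The log2 fold change of Telaglenastat against Control differed between tumors and cultures for 6 genes by an interaction test (edgeR). The difference was 0.44 for CS, −0.49 for IDH3B, −2.97 for IDH3G, −1.163 for OGDH, 0.541 for SUCLA2 and −1.085 for MDH2. GC slopes were 0.339 to 0.348 in Control tumors, −0.288 to −0.205 in Telaglenastat tumors and −0.251 to 0.292 in cultures, and with the GC content and length correction the difference passed for IDH3G (−1.58) and MDH2 (−0.90).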

How the results depend on the processing

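The calls of IDH3G, OGDH and MDH2 against Control tumors under Telaglenastat and Combination kept their direction and side of the threshold in every alternative run. Calls of 1 in Palbociclib against Control tumors fell to 0 with DESeq2 size factors, with only the groups compared, with the replicate block and with the correction plus block, and ranged from 0 to 1 with 1 library left out. Calls in Combination against Control rose from 4 to 8 with the GC content and length correction and 9 with the block added, 5 being the recentred count. Calls in Telaglenastat against Control went from 6 to 3 recentred, and in Combination against Palbociclib from 6 to 3. Combination against Telaglenastat went from 2 to 1 with the correction, with or without block, and 1 to 3 with 1 library left out. In cultures this pair went from 0 to 2 without the filter and 0 to 1 with 1 library left out. The Telaglenastat difference between tumors and cultures went from 6 calls to 2 with the correction, with block and recentred, and to 3 to 8 with 1 library left out. The Palbociclib difference had 1 call without the filter or with only the groups compared, and the Combination difference 2 and 1. For most of these alternatives the share of all genes called is not given here, so the counts of members cannot be set against it.

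Signs that turned are listed here where the value passed the threshold with or without the correction. With the correction before recentring, they turned in Telaglenastat against Control for CS (−0.244, with block −0.243), IDH3A (−0.469, −0.432), SUCLG1 (−0.027, −0.048) and SUCLA2 (−0.176, −0.166). FH turned there too (−0.246) but passed only with block (−0.264). In Combination against Control the signs turned for IDH3A (−0.304, −0.268) and SUCLA2 (−0.41, −0.4). SUCLG1 turned there as well (−0.218) but passed only with block (−0.24). In Combination against Palbociclib the signs turned for CS (−0.22, −0.245), SUCLA2 (−0.293, −0.289) and FH (−0.189, −0.226). In the Telaglenastat difference the sign turned for SUCLA2 (−0.018, −0.003). Other signs turned without a call in either form. This correction moved the median log2 fold change of all genes from 0.027 to −0.223 for Telaglenastat and from −0.036 to −0.193 for Combination. It called 30.3% of all genes lower and 2.98% higher for Telaglenastat (6 members lower, 0 higher), and 28.7% and 6.05% for Combination. Recentred, among values that passed in either form, signs turned for SUCLA2 in Combination against Palbociclib (−0.101) and IDH3B in the Telaglenastat difference (0.051). Others turned without a call in either form, among them IDH3A in Telaglenastat against Control (−0.241) and SUCLA2 in Combination against Control (−0.215).

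Replicate numbers did not pair the samples. Of 21 same-numbered tumor pairs 0 had deviations correlated above 0.1, and of 18 culture pairs 3, so the replicate block was only an alternative, and with it the FH value of Palbociclib against Control tumors was −0.308 (edgeR adjusted p = 0.151). Depth limits IDH3G most, the member with the lowest counts.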
